A study of Mus musculus with 4 samples.

Results

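The genes described are 4 ErbB receptors (*Egfr*, *Erbb2*, *Erbb3* and *Erbb4*) and 6 of their EGF-type ligands (*Areg*, *Tgfa*, *Hbegf*, *Btc*, *Ereg* and *Nrg1*). They were taken by name from the deposited table of mammary gland RNA-Seq, where each of the 10 has a single row among the 22483 rows that carry a gene name. The study sequenced poly(A) RNA of whole mammary tissue from virgin mice aged 2 months, 2 of them miR-21+/+ and 2 miR-21-/-, all on a mixed 129SV::FVB/N::C57BL/6 background. The miR-21-/- mice lack the microRNA in the whole animal, since no cell type-specific driver is named for this allele, and the tissue holds epithelium, fat and stroma together. The authors give each gene as FPKM, a count of sequenced fragments scaled to exon length and library size, with one value per genotype for its 2 mice together. Differences between mice of a genotype can thus not be seen, the depth behind each value is unknown, and no difference below has a replicate check or a test.

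ErbB receptors are membrane tyrosine kinases that pair with each other when a ligand binds. *Egfr* binds amphiregulin (*Areg*), TGF-alpha (*Tgfa*) and, with *Erbb4*, HB-EGF (*Hbegf*), betacellulin (*Btc*) and epiregulin (*Ereg*). *Erbb3* and *Erbb4* bind the neuregulins. *Erbb2* has no known ligand and works as a partner, while *Erbb3* has little kinase activity of its own. In the mammary gland amphiregulin is made by estrogen-responsive luminal cells, is released from the membrane by the protease ADAM17, and acts on stromal *Egfr* to drive the growth of ducts in puberty.

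The targeted locus was read first. Mature miR-21 is not measured in poly(A) RNA, and the table lists *Mir21* with its host gene *Vmp1* as a single row at 42.5 FPKM in miR-21+/+ and 68.2 FPKM in miR-21-/- glands. This value is that of the merged row, in which transcripts of *Mir21* and *Vmp1* cannot be told apart, and does not check the genotypes.

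*Areg* was the most abundant of the 6 ligands and was 1.87-fold higher in miR-21-/- glands. Among the receptors *Erbb3* was 1.57-fold higher, whereas *Egfr* and *Erbb2* lay within 1.1-fold of their miR-21+/+ values. The other 6 genes, *Erbb4* among them, stayed at or under 5 FPKM in both genotypes. Of the 4 members above 5 FPKM, the minimum the study used, 2 were higher by 1.5-fold or more and 0 were lower. When the genotypes were instead scaled to equal sums over all loci, named or not, 0 were higher and 1, *Egfr*, was lower. The log2 fold changes were then 0.27 for *Areg* and 0.0162 for *Erbb3*. That scaling put 67.7% of named loci above 5 FPKM lower by 1.5-fold or more and 0.564% higher, so the call of *Egfr* does not set it apart. As deposited, all 4 members exceeded 5 FPKM in both genotypes. Of the 9714 named loci above that minimum in at least one genotype, 3.85% were higher by 1.5-fold or more in miR-21-/- glands, without rescaling. Another 4.33% were lower by as much, and the median log2 fold change was −0.03.

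**Figure D1:**
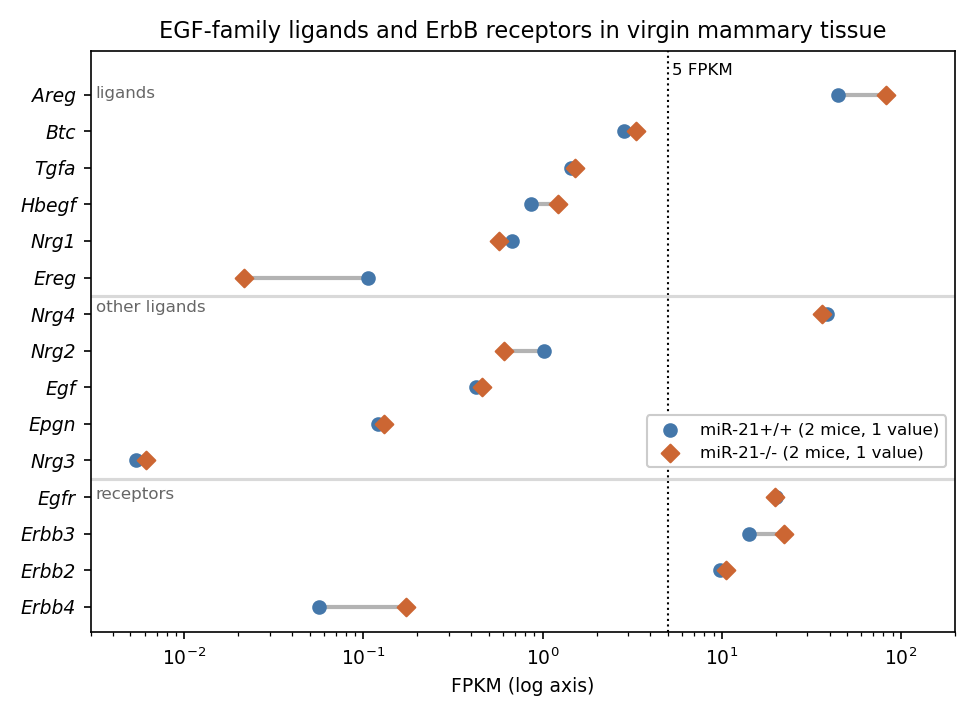
FPKM on a log axis of the 6 ligands, 5 other EGF-family ligands and 4 receptors, with a circle for miR-21+/+ and a diamond for miR-21-/- glands, each a single value over 2 mice. *Areg* and *Erbb3* lie to the right of the 5 FPKM line (dotted) with the diamond to the right of the circle, and *Ereg* and *Erbb4* show wide gaps at values under 0.2 FPKM.

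*Areg* (chromosome 5, 91568641 to 91577458, mm9) was at 44.5 FPKM in miR-21+/+ and 83.0 FPKM in miR-21-/- glands, a log2 fold change of 0.90. Its mean FPKM was above that of 95.9% of named loci, and 1.75% of the loci above 5 FPKM were higher by as much or more. It made up 88.3% of the summed FPKM of the 6 ligands in miR-21+/+ glands and 92.6% of it in miR-21-/- glands. The sum itself was 50.4 FPKM and 89.6 FPKM, and without *Areg* it was 5.91 FPKM and 6.64 FPKM. The difference in ligand transcript between the genotypes was thus nearly all *Areg*. Relative to *Egfr*, the FPKM of *Areg* was 2.22 times as high in miR-21+/+ glands and 4.19 times as high in miR-21-/- glands.

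The other ligands were low. Betacellulin (*Btc*, chromosome 5, 91786287 to 91832020) was at 2.83 FPKM and 3.32 FPKM in miR-21+/+ and miR-21-/- glands. *Tgfa* (chromosome 6, 86145245 to 86225443) was at 1.44 FPKM and 1.51 FPKM, a difference of 0.07 on the log2 scale. *Hbegf*, which binds both *Egfr* and *Erbb4*, was at 0.859 FPKM and 1.22 FPKM, with a log2 fold change of 0.51. These 3 were higher in miR-21-/- glands but under 1.5-fold. Among named loci with a mean of 0.3 to 5 FPKM, 11.7% were 1.5-fold or more higher and 13.2% were 1.5-fold or more lower, so ratios near that of *Hbegf* were common at this level. *Nrg1* (chromosome 8, 32928487 to 33028675), the neuregulin that *Erbb3* and *Erbb4* bind, was at 0.671 FPKM and 0.570 FPKM. *Ereg* (chromosome 5, 91503643 to 91522675) was at 0.106 FPKM in miR-21+/+ and 0.0215 FPKM in miR-21-/- glands. Both were lower in miR-21-/- glands, *Nrg1* by 1.18-fold and *Ereg* by 4.95-fold. Of the 2561 named loci with a mean of 0.03 to 0.3 FPKM, 17.4% were 2-fold or more lower and 16.2% were 2-fold or more higher, so the ratio for *Ereg* rests on values that scatter widely in both directions.

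*Epgn*, *Ereg*, *Areg* and *Btc* lie in a row on chromosome 5, and the level differed greatly between these neighbours. *Ereg* begins 65.0 kb before *Areg* and was at 0.106 FPKM in miR-21+/+ glands against 44.5 FPKM for *Areg*. *Epgn*, which encodes epigen, begins 112 kb before it and was at 0.120 FPKM and 0.130 FPKM. *Btc* lies on the other side, 218 kb from the start of *Areg*. *Mthfd2l*, next to *Epgn* and outside the ligand family, was at 7.17 FPKM in miR-21+/+ glands with a log2 fold change of −0.03. Only *Areg* among the 4 ligands of this row was above 5 FPKM, and the log2 fold changes of the others were 0.12 for *Epgn*, −2.31 for *Ereg* and 0.23 for *Btc*.

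The promoter of *Areg* is shown because it is the member with the largest difference in FPKM. The window runs from 250 bases before to 50 bases after the gene start in RefSeq (build GRCm38.p6), and 6 of the 10 members had such a window in the table used here. In *Areg* it held the motif TGACGTCA, the palindrome known as the cAMP response element, from 61 to 54 bases before the start, and TATAAA from 31 to 26 bases before it. In capitals, on the plus strand, these motifs read:
Areg, chr5:91139530-91139548: ctggtccgTGACGTCAcgg
Areg, chr5:91139565-91139581: gtcTATAAAagcagcag
On either strand TGACGTCA was found in 1.79% of the 32851 promoter windows of the same length, TATAAA in 13.6% and both together in 0.170%. None of the other 5 members with a window, *Tgfa*, *Btc*, *Egfr*, *Erbb2* and *Erbb4*, held TGACGTCA or TATAAA. The STAT5 motif TTCNNNGAA, the motif of the study's *miR-21* promoter, was in 8.30% of all windows and in 0 of the 6. The paper places the sites of the *miR-21* promoter farther before the start than this window reaches. Sites at such a distance from the members were not looked for.

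*Egfr* (chromosome 11, 16652206 to 16818164) was at 20.0 FPKM in miR-21+/+ and 19.8 FPKM in miR-21-/- glands, a log2 fold change of −0.01. *Erbb2* (chromosome 11, 98273741 to 98301521) was at 9.79 FPKM and 10.6 FPKM, a log2 fold change of 0.11. Both were close to their miR-21+/+ level, and 22.2% of loci above 5 FPKM were higher by as much as *Erbb2* or more. The table lists *1810046J19Rik* over the same interval as *Erbb2*, so reads in any overlap of the pair may be split between them. *Erbb3* (chromosome 10, 128004585 to 128026985) was at 14.3 FPKM and 22.3 FPKM, a log2 fold change of 0.65, and 3.26% of loci were higher by as much or more. The 5 other named loci above 5 FPKM within 50 kb of *Erbb3* had log2 fold changes from −0.06 to 0.07. They include *Pa2g4*, whose product binds ErbB3, at 39.4 FPKM and 39.9 FPKM. The 1 named locus there at or under 5 FPKM, *Ikzf4*, was at 0.801 FPKM and 1.22 FPKM. At the levels above 5 FPKM the higher value was thus that of *Erbb3* and not of the loci around it.

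The order of the receptors by FPKM differed between the genotypes. In miR-21+/+ glands *Egfr* made up 45.4% of the sum of the 4 receptors, *Erbb3* 32.3% and *Erbb2* 22.2%. In miR-21-/- glands *Erbb3* came first with 42.2%, ahead of *Egfr* with 37.5% and *Erbb2* with 20.0%. The sum was 44.1 FPKM and 52.9 FPKM. The ratio of *Erbb3* to its partner *Erbb2* was 1.46 in miR-21+/+ glands and 2.11 in miR-21-/- glands.

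**Figure D2:**
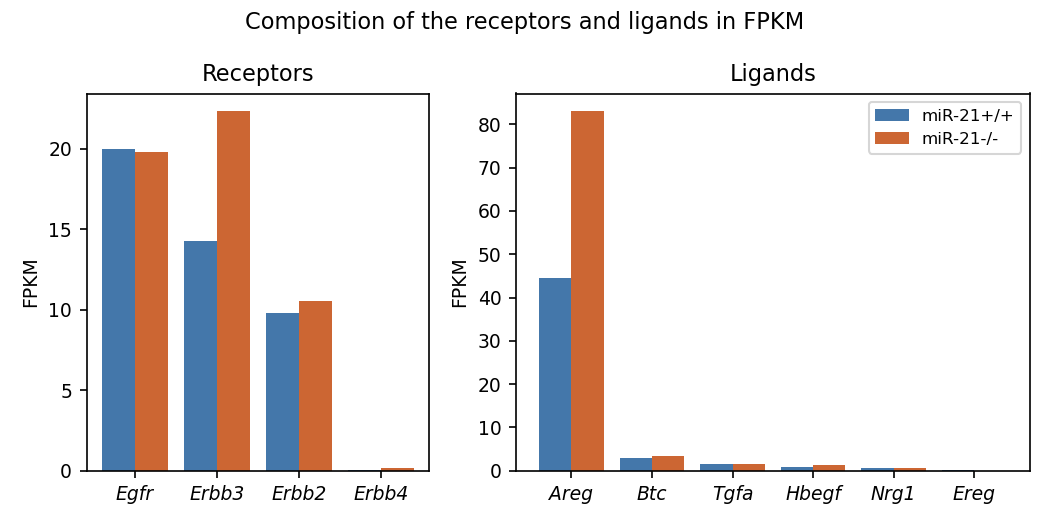
FPKM of the 4 receptors (left) and the 6 ligands (right), with blue bars for miR-21+/+ and orange bars for miR-21-/- glands, each a single value over 2 mice. *Erbb3* passes *Egfr* in miR-21-/- glands, and *Areg* at 44.5 and 83.0 FPKM stands far above the other ligands, of which *Btc* is the highest at 2.83 and 3.32 FPKM.

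**Figure D3:**
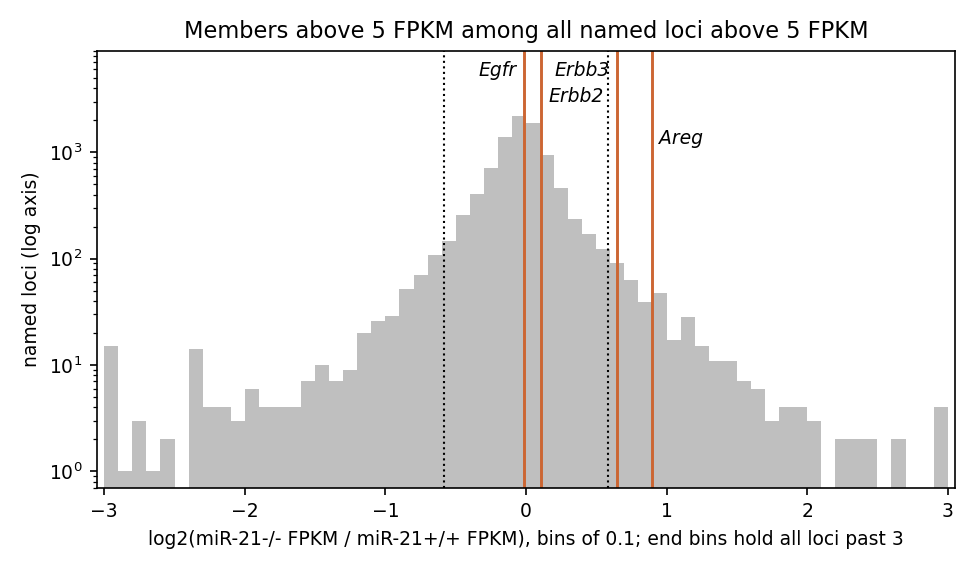
Log2 fold changes of the 9714 named loci above 5 FPKM (grey, number of loci on a log axis) with the 4 members above that minimum as orange lines and 1.5-fold as dotted lines. *Egfr* and *Erbb2* lie near the centre at −0.01 and 0.11, and *Erbb3* and *Areg* lie past the upper dotted line at 0.65 and 0.90.

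*Erbb4*, the neuregulin receptor best known in the gland for its part in lactation, was at 0.0561 FPKM in miR-21+/+ and 0.174 FPKM in miR-21-/- glands. Its row (chromosome 1, 68086540 to 69154633) was 3.10-fold higher in miR-21-/- glands, at a level where 16.2% of named loci were 2-fold or more higher. The row does not cover the end of the gene. In the GENCODE annotation of mm9 the longest 3′ UTR of *Erbb4* has 7855 nt on the minus strand, from 68078760 to 68086614, and 75 nt of it lie inside the row. The table holds 4 loci without a gene name that fall wholly inside this 3′ UTR. They were looked for after the values of the members had been seen, as unnamed loci in or within 10 kb of a member or of the 5 other EGF-family ligands.

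All 4 of these loci were higher in miR-21-/- glands. The longest, of 2017 bp (chromosome 1, 68081000 to 68083016), was at 0.226 FPKM and 0.780 FPKM. Its neighbour of 1073 bp (68079837 to 68080909) was at 0.226 FPKM and 0.778 FPKM. The shorter pair, of 582 bp and 288 bp, was at 0.468 FPKM and 0.517 FPKM in miR-21+/+ and at 0.962 FPKM and 2.17 FPKM in miR-21-/- glands. The log2 fold changes lay between 1.04 and 2.07, on either side of the 1.63 of the named row. Weighted by length, the 4 loci were at 0.283 FPKM and 0.908 FPKM, a log2 fold change of 1.68. Among the 7418 unnamed loci with a mean of 0.3 to 5 FPKM, 15.3% were 2-fold or more higher and 18.1% were 2-fold or more lower. The 4 loci lie one after another, with gaps between them, in a single annotated exon and can be pieces of a single transcript. They thus do not count as separate measurements of *Erbb4*.

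Near *Nrg1* the unnamed loci did not move together. The 4 that lie 2370 to 7821 bp past its annotated 3′ end had log2 fold changes of −0.55, −0.55, 2.02 and −1.34 in order of distance. Another 2 overlapped its annotated exons farther upstream, and the log2 fold change of each was 0.16.

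**Figure D4:**
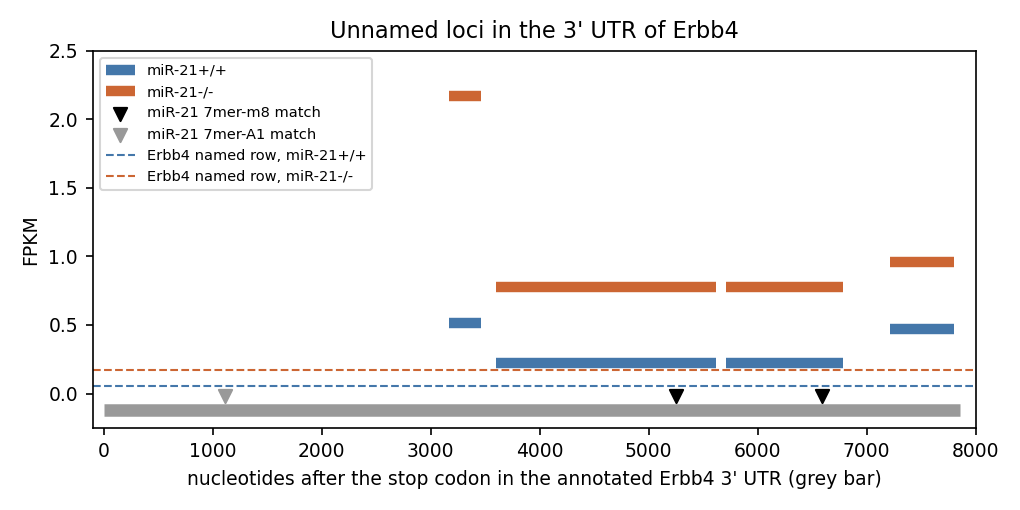
FPKM of the 4 unnamed loci along the annotated 3′ UTR of *Erbb4* (grey bar, 7855 nt), counted in nucleotides from the stop codon, with blue for miR-21+/+ and orange for miR-21-/- glands, dashed lines for the named row and triangles for miR-21 seed matches. Orange lies above blue at all 4 loci, and both 7mer-m8 matches (black) fall inside loci at 0.226 FPKM in miR-21+/+ and 0.778 or 0.780 FPKM in miR-21-/- glands.

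Matches to miR-21 in the members' 3′ UTRs are shown because the genotypes differ in this microRNA. RefSeq gives mouse miR-21a-5p as a mature RNA of 22 nt, with the seed, bases 2 to 8, in capitals:
mmu-miR-21a-5p: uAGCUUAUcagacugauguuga
A 7mer-m8 match pairs with the whole seed and reads ATAAGCT in the transcript, an 8mer match adds a final A (ATAAGCTA), and a 7mer-A1 match is TAAGCTA. For each gene the longest 3′ UTR in GENCODE was searched on the transcript strand. Of the 10 members, *Egfr* and *Erbb4* held a 7mer-m8 match and none held an 8mer. Of 9090 genes that passed 5 FPKM and have a 3′ UTR in GENCODE, 7.03% held a 7mer-m8 or 8mer match. Over all 19915 genes with a 3′ UTR, whatever their level, the share was 6.09%. Neither share was matched for length, and *Egfr* with 6303 nt and *Erbb4* with 7855 nt have the longest 3′ UTRs of the members. *Areg*, with a 3′ UTR of only 253 nt, and *Erbb2* with 1048 nt held no match, and *Erbb3* with 1845 nt held a match to the shorter TAAGCT alone. The sites of *Egfr* and *Erbb4*, with the match in capitals and mm9 coordinates, are on the plus strand for *Egfr* and the minus strand for *Erbb4*:
Egfr, 7mer-m8, chr11:16815546-16815567: tctactttcttttgATAAGCTt
Egfr, 7mer-A1, chr11:16815976-16815996: cattattacagagcTAAGCTA
Erbb4, 7mer-m8, chr1:68081357-68081378: gctgtaaagactatATAAGCTc
Erbb4, 7mer-m8, chr1:68080014-68080035: gcataaactggtaaATAAGCTg
Erbb4, 7mer-A1, chr1:68085491-68085511: aagtagtttgcactTAAGCTA
Thus the member with 2 matches to the whole seed was higher in miR-21-/- glands at a low level, the other member with such a match was level, and *Areg* and *Erbb3* were higher without one. A match is a description of the sequence and not evidence of binding.

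Of the other EGF-family ligands, *Nrg4*, a neuregulin secreted by fat, was at 38.9 FPKM and 36.3 FPKM, close to the level of *Areg* in miR-21+/+ glands. The table lists *Nrg4* over the same interval as *Fbxo22* and *Ube2q2*, so its level is uncertain. The other 4, *Egf*, *Epgn*, *Nrg2* and *Nrg3*, were at or under 1.02 FPKM. *Epgn* held the family's single 8mer match, and its values of 0.120 FPKM and 0.130 FPKM differed by 0.12 on the log2 scale.

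Of 8 genes that release the ligands or restrain that release, 0 were 1.5-fold or more higher and 1 was lower. Over all named loci above 5 FPKM, 3.85% were higher and 4.33% lower, so low counts in lists this short are near those shares. *Adam17*, the main amphiregulin sheddase, was at 18.1 FPKM and 16.4 FPKM, and *Adam10* at 38.5 FPKM and 43.3 FPKM. *Adam12*, a protease that can cleave HB-EGF, was lower, at 26.3 FPKM and 12.5 FPKM. *Timp3*, which inhibits ADAM17, was at 112 FPKM and 142 FPKM. The median of these 8 was 0.09. Of 11 genes that damp the receptors 9 were above 5 FPKM and 0 reached 1.5-fold in either direction, with a median of 0.13. The most abundant was *Errfi1*, an inhibitor of the EGFR kinase, at 31.1 FPKM and 37.4 FPKM.

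The adaptors and kinases that carry the signal inward had a median near 0. Of 21 genes of this relay 18 were above 5 FPKM, 0 reached 1.5-fold and the median was 0.04. With 3.85% of all named loci above 5 FPKM higher and 4.33% lower, a count of 0 in this list is near those shares. The most abundant, the kinase *Akt2*, was at 84.6 FPKM in miR-21-/- glands, with a log2 fold change of −0.33. The adaptors *Gab1* and *Grb7* and the PI3K subunit *Pik3r1*, whose row is marked as failed, came closest to the limit, with log2 fold changes of 0.52, 0.49 and 0.50, and 3 genes of the relay passed it with equal sums over named loci. Among 14 genes that ERK signaling is known to induce, 10 were above 5 FPKM, of which 2 were 1.5-fold or more higher and 1 was lower. *Phlda1* was at 12.9 FPKM and 26.8 FPKM and the early growth response factor *Egr1* at 7.89 FPKM and 16.0 FPKM. *Etv4*, a factor of the ETS family, was at 7.74 FPKM and 3.51 FPKM. *Dusp6*, the phosphatase that feeds back on ERK, was at 18.3 FPKM and 16.7 FPKM. With 2 genes higher, 1 lower and a median of 0.10, the list had no common direction.

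Genes of the hormone-sensing luminal cells, where *Areg* is made, went in both directions. Of 8 listed genes 6 were above 5 FPKM, and 2 of these were 1.5-fold or more higher and 1 was lower. The shares over all named loci above 5 FPKM were 3.85% and 4.33%. The progesterone receptor *Pgr* was at 4.71 FPKM and 23.3 FPKM and the luminal factor *Gata3* at 19.6 FPKM and 38.8 FPKM, the latter in a row merged with *9230102O04Rik*. *Cited1*, a co-activator of the estrogen receptor, was at 43.9 FPKM and 11.7 FPKM. The estrogen receptor *Esr1*, which drives *Areg*, was at 17.7 FPKM and 12.5 FPKM in a row that the table marks as failed. The prolactin receptor *Prlr*, the most abundant of the list by the mean of both genotypes, was at 31.5 FPKM and 43.2 FPKM. The median log2 fold change of the 6 genes was 0.05. Without the merged row it was −0.35, and without the failed row 0.46.

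The listed luminal and basal markers were higher, as were *Areg* and *Erbb3*, whereas the hormone-sensing genes above went in both directions. Over all named loci above 5 FPKM, 43.1% were higher in miR-21-/- glands by any amount. All 10 luminal markers were higher in miR-21-/- glands, with log2 fold changes from 0.15 for *Krt19* to 0.95 for *Elf5*, a median of 0.52 and a summed level of 692 FPKM and 947 FPKM. All 8 basal or myoepithelial markers were higher too, from 0.50 for *Krt17* to 1.47 for *Oxtr*, with a median of 0.66 and sums of 355 FPKM and 570 FPKM. Most of these sums lay in *Acta2*, at 222 FPKM and 341 FPKM. The *Krt14* row is merged with *Krt16*, and without it the sums were 332 FPKM and 531 FPKM. No marker of either list was at 0. These medians depended on the scaling. With equal sums over all loci the luminal median was −0.11 and the basal median 0.03. Relative to the luminal median, the log2 fold change was 0.38 for *Areg*, 0.12 for *Erbb3*, −0.41 for *Erbb2* and −0.54 for *Egfr*. Thus *Erbb3* was higher by about as much as the luminal markers and *Areg* by more than their median but less than *Elf5*, while *Egfr* and *Erbb2* were below all 10 of them. The part of these markers in the values of *Areg* and *Erbb3* was not tested, and in whole tissue more cells of a type and more RNA per cell cannot be told apart.

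Markers of the other cell types were read in the same way. For comparison, 4185 of the 9714 named loci above 5 FPKM were higher and 5529 were lower in miR-21-/- glands. Of 7 adipocyte markers 6 were lower and *Lep*, which encodes leptin, was higher, with a median of −0.48 and sums of 12250 FPKM and 8869 FPKM. The fibroblast median was −0.13, with sums of 5283 FPKM and 4726 FPKM, and the endothelial median was 0.11, with sums of 130.4 FPKM and 139 FPKM. For Schwann cells, which use *Nrg1* and *Erbb3*, the median was −0.03 and the sums were 90.3 FPKM and 106 FPKM. *Sox10*, a factor of glial and epithelial cells, was at 16.4 FPKM and 36.1 FPKM and alone of the listed Schwann genes was higher by 1.5-fold or more. All 6 lymphocyte markers were lower, with a median of −2.40 and sums of 105 FPKM and 54.4 FPKM. Most of these sums lay in the *Cd79a* row, which is merged with *Arhgef1*, and without it they were 34.7 FPKM and 6.11 FPKM. All 6 skeletal muscle markers were higher, with a median of 0.79 and sums of 1023 FPKM and 1690.2 FPKM. The 5 macrophage markers in the table had a median of −0.02, with sums of 393 FPKM and 397 FPKM. Without the *Cd68* row, which is merged with the translation factor gene *Eif4a1* and with *Senp3*, the sums were 138 FPKM and 146 FPKM and the median was 0.0646. The *Krt10* row of the skin list was at 5.70 FPKM and 1.98 FPKM, and the other 3 listed skin genes in the table were under 5 FPKM, all 4 being lower in miR-21-/- glands with sums of 7.63 FPKM and 2.19 FPKM. No listed marker in the table was at 0. The part of fat, lymphocyte, muscle and skin tissue in the members' values was not tested.

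**Figure D5:**
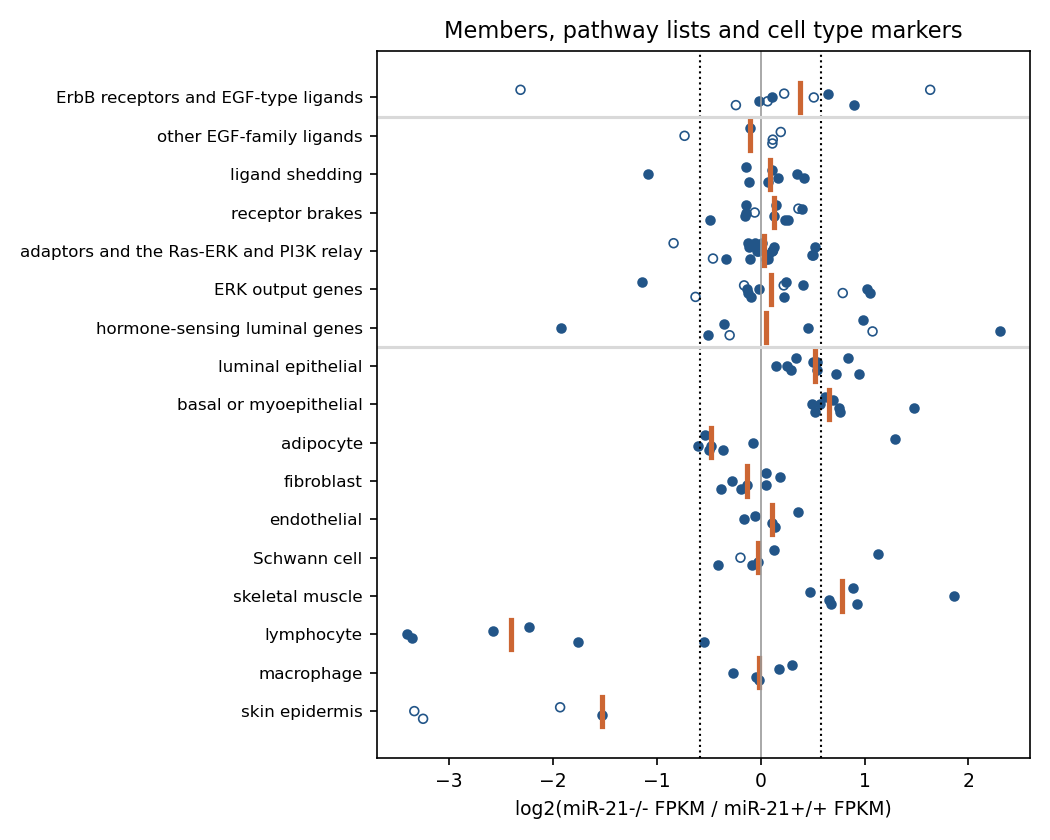
Log2 fold changes of single genes in the member list (top), 6 pathway lists and 10 marker lists, with filled points for genes above 5 FPKM in at least one genotype, open points for the others, an orange bar for the median of the filled points and dotted lines at 1.5-fold. All luminal and basal points lie right of 0, as do *Areg* at 0.90 and *Erbb3* at 0.65, whereas the median of the relay genes is 0.04.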

How the data were processed

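Mammary poly(A) RNA of 2 miR-21+/+ and 2 miR-21-/- virgins was sequenced from a single end of each fragment. Per the labels and the methods, TopHat was used for alignment to mm9, and the authors deposited FPKM values estimated with Cufflinks, in a Cuffdiff table with one value per genotype over its 2 mice. Program versions, annotation and normalization options are not given in the sources used here. The table also holds fold changes, test statistics, p-values and q-values of the authors' own comparison, which were not used. Its status mark was used only to note rows marked as failed.

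From the deposited FPKM values the log2 ratio of miR-21-/- to miR-21+/+ was computed without a pseudocount. A member was the row carrying its name with the highest mean FPKM. Loci above 5 FPKM in at least one genotype were counted at 1.5-fold or more. No test was run, and no interval was computed, since the table gives neither mice nor read counts. Genes were named if they were members, other family ligands, or, within 16 lists, at 1.5-fold or more or the most abundant. Others (*Adam10*, *Adam17*, *Esr1*, *Dusp6*, *Gab1*, *Pik3r1*, *Pa2g4* and the neighbours of members among them) were added after their values were seen. One gene in each of 3 marker lists was not analysed here. The members and lists were chosen with earlier results of these data known. Starts are given counting from 1. Transcripts came from the GENCODE annotation of mm9, promoters and the mature microRNA from RefSeq (GRCm38.p6), and the 2 builds were not mixed. Calculations were tested on simulated data and used Python 3.11.15, numpy 2.4.6 and pandas 2.3.3, with figures by matplotlib 3.10.9. Alternatives were other pseudocounts, FPKM minimums, fold limits and scalings.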

Additional observations from a re-analysis of the deposited data

How the results depend on the processing

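No paired analysis was possible because both mice of a genotype share one FPKM value, and for this reason no mouse could be left out. The depth is unknown. Pseudocounts of 1 and 0.1 changed neither the direction nor the 1.5-fold side of *Areg*, *Erbb3*, *Egfr* and *Erbb2*. Summing the rows of a name could change nothing, since each member has a single row, and is no check. Scaling moved them more. With equal sums over all loci, which shifts each log2 fold change by −0.63 because loci without a name hold a larger part of the miR-21-/- sum, the values were 0.27 for *Areg*, 0.0162 for *Erbb3*, −0.65 for *Egfr* and −0.52 for *Erbb2*. The count of members was then 0 higher and 1 lower, and of the named loci above 5 FPKM 0.564% were higher and 67.7% lower. With equal sums over named loci (a shift of 0.10) *Egfr* was at 0.0844, and centred on the median of named loci at 0.0147. Relative to the luminal median *Areg* was at 0.38, *Erbb3* at 0.12 and *Erbb2* at −0.41. Relative to the basal median, an alternative added after seeing the data, they were at 0.24, −0.0115 and −0.55, and *Egfr* was at −0.67. At a 2-fold limit 0 members were higher, and with no FPKM minimum 3 were higher, *Erbb4* being added, and 1 was lower, namely *Ereg*. The shift, the limit and the minimum account for these changes by their construction. Both added genes have a mean of 0.03 to 0.3 FPKM, where 16.2% of named loci were 2-fold or more higher and 17.4% lower.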

Other observations

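Beyond the ligand row on chromosome 5, *Cxcl15*, a chemokine gene that begins 345 kb before *Areg*, was at 3.31 FPKM in miR-21+/+ and 28.2 FPKM in miR-21-/- glands, a log2 fold change of 3.09. Its neighbours *Cxcl1*, *Cxcl2* and *Cxcl3* were all under 1 FPKM, with log2 fold changes of 0.14, 0.23 and 0.21. *Parm1*, on the far side of *Btc*, was at 14.7 FPKM and 15.7 FPKM. *Gm19619*, between *Areg* and *Btc*, was at 0.186 FPKM and 0.429 FPKM, a log2 fold change of 1.21 at a level under 1 FPKM.

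Around *Erbb2* the adaptor gene *Grb7* was at 8.16 FPKM and 11.5 FPKM, a log2 fold change of 0.49. The muscle gene *Tcap* was at 16.2 FPKM and 26.9 FPKM, and the lymphoid factor *Ikzf3* at 3.91 FPKM and 0.786 FPKM, while *Stard3* was at 14.3 FPKM and 13.4 FPKM. The genes around *Erbb2* and *Areg* were chosen for mention with their values in view.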
